A study of Homo sapiens with 6 samples.

Results

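The hypoxia-inducible factors (HIF) and the proteins that couple them to oxygen were examined at the transcript level in HCT116, an established human colorectal carcinoma cell line, by RNA sequencing of polyA-selected RNA. The set comprises 9 genes, taken by symbol from the deposited table of 36651 genes: the alpha subunits HIF1A, EPAS1 and HIF3A, the beta subunit ARNT, the prolyl hydroxylases EGLN1 and EGLN2, the ubiquitin ligase subunit VHL, the asparaginyl hydroxylase HIF1AN and the coactivator competitor CITED2. All 9 were found. Libraries came from 3 control samples, named Ctrl or WT in the labels, and 3 samples named siMTA1, siMTA or CrMTA1, both in HCT116. MTA1 belongs to the NuRD complex, a chromatin regulator with remodelling and histone deacetylase subunits. The labels do not say how MTA1 was lowered, what the control received, at what oxygen tension or for how long cells were grown, or whether replicates were separate cultures, so p-values reflect the spread of these samples alone, and that spread may be technical.

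A HIF is a dimer of an alpha and a beta subunit that binds DNA and raises transcription of genes for glycolysis, angiogenesis and adaptation to low oxygen. When oxygen is present, EGLN enzymes hydroxylate prolines of the alpha subunit with the help of iron and 2-oxoglutarate, VHL recognises the hydroxylated protein, and the proteasome destroys it. HIF1AN hydroxylates an asparagine that would otherwise contact the coactivators CBP and p300, and CITED2 competes for the same contact. In intestinal epithelium HIF1A and EPAS1 are both present and have only partly shared targets. Since the alpha subunits are controlled chiefly through protein stability, transcript levels do not report HIF protein or its activity.

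The label siMTA1 was checked on MTA1 itself. It stood at 65.90, 67.61 and 66.74 FPKM (fragments scaled to gene length and library size) in control libraries 1, 2 and 3. The siMTA1 libraries 1, 2 and 3 had 44.55, 43.98 and 47.97 FPKM, all below the lowest control. The difference was −0.54 on the log2(FPKM + 1) scale (limma adjusted p = 0.000376), and an exact permutation test, two-sided, reached its lowest possible p for 3 against 3 libraries, p = 0.1. The depth implied by the steps of low values was 43300000 to 65200000 fragments in control and 57300000 to 66900000 fragments in siMTA1 libraries. Of 8 markers of colon epithelium, EPCAM, KRT8, KRT18, KRT20, CDH1 and CDX2 were present, whereas VIL1 and CDX1 reached at most 0.04 and 0.02 FPKM. The summed level of that list was 3138 to 3284 FPKM in control and 2555 to 2841 FPKM with siMTA1. KRT8 and KRT18 fell and CDH1 rose with siMTA1. The part of this in the results below was not tested. Summed markers of endothelium, a cell type rich in EPAS1, did not exceed 0.29 FPKM in any library, those of leukocytes 0.50 and those of erythroid cells 0.19 FPKM, and the fibroblast list lay at 1.93 to 2.76 FPKM, nearly all of it COL1A1.

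HIF1A was the member that changed: its transcript fell to 78.8% of the control level with siMTA1. The other alpha subunit expressed in these cells, EPAS1, stood at 99.8% of control, and ARNT, EGLN1, VHL, HIF1AN and CITED2 lay between 94.8% and 109.8%. The test, limma on log2(FPKM + 1), covered the 12141 genes averaging 1 FPKM or more, and a gene was called changed at an adjusted p under 0.05. Of the 9 members, 7 reached that mean and 2, HIF3A and EGLN2, did not. Of the 7 tested, 1 fell and 0 rose, and the counts at an unadjusted limma p under 0.05 were the same. Among all tested genes 18.2% were called, 12.1% lower and 6.13% higher, so 1 of 7 is near the background. At the unadjusted p 35% of all tested genes passed, 23.5% lower and 11.5% higher. The median log2 fold change of the 7 was −0.00, beside −0.05 over all tested genes. In bulk RNA, fewer cells expressing a gene and less of its RNA per cell cannot be told apart.

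**Figure D1:**
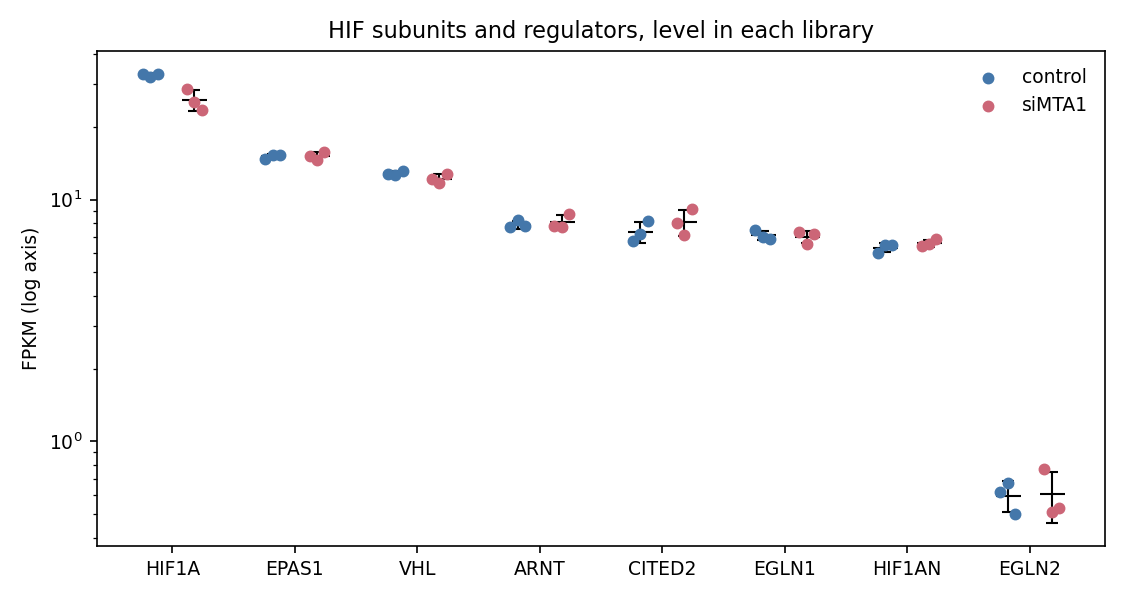
Level in FPKM (log axis) of 8 members in each of 3 control and 3 siMTA1 libraries, as points, with the mean and SD of each group as bars. HIF1A lies at 32.04 to 33.11 FPKM in control and at 23.42 to 28.61 FPKM with siMTA1, whereas the groups of the other 7 members overlap. HIF3A, at 0.02 FPKM or less, is not drawn.

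HIF1A encodes the oxygen-regulated subunit of HIF-1 (ENSG00000100644.16, chromosome 14, 61695513 to 61748259, plus strand of GRCh38). Its level was 33.11, 32.04 and 32.99 FPKM in control libraries 1, 2 and 3 and 28.61, 25.33 and 23.42 FPKM in siMTA1 libraries 1, 2 and 3. The groups did not overlap, with all siMTA1 libraries below all control libraries. Of the 7 tested members HIF1A was the 1 without overlap, beside 39.1% of all tested genes in either direction and 25.9% in this direction. Group means were 32.7 ± 0.586 and 25.8 ± 2.62 FPKM (SD, n = 3 each), so that the siMTA1 libraries spread more, by 10.2% of their mean against 1.79% in control. At the implied depths HIF1A rested on 7383 to 11080 fragments a library, for which counting alone gives an error of 0.95% to 1.16%. The log2 fold change was −0.34 (SE 0.07, 95% interval −0.50 to −0.17, limma adjusted p = 0.0135), and 4.59% of tested genes had a lower one. HIF1A was lower in all 19 alternative settings, with log2 fold changes of −0.41 to −0.27 and an adjusted p of 0.00435 to 0.134. The call was lost when low genes were kept in the test (adjusted p = 0.134) and, narrowly, without siMTA1 library 2 (log2 fold change −0.33, adjusted p = 0.0521).

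An exon of HIF1A is also annotated in a second gene. RP11-618G20.1 (ENSG00000258964.1), singled out after its values were seen, has 5 exons on the same strand, and its first, at chr14:61734138-61734285, has the boundaries of a HIF1A exon of 148 bases. It was listed at 30.76, 27.71 and 25.43 FPKM in control and at 23.88, 20.18 and 20.99 FPKM with siMTA1, again without overlap of the groups. Its log2 fold change was −0.35 (SE 0.08, limma adjusted p = 0.0194), a size like that of HIF1A. Reads of the common exon could have been given to either gene, and the sources used here do not say how they were counted. The antisense gene HIF1A-AS2, which lies across HIF1A without sharing exon bases, was listed at no more than 0.08 FPKM. A further antisense gene, HIF1A-AS1, shares 117 exon bases with HIF1A, 2.3% of its exon bases, and was not listed.

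The tested genes whose levels followed HIF1A most closely were TOMM6, a small subunit of the import channel of the outer mitochondrial membrane, METTL10, a methyltransferase gene, and FAM185A. Pearson's r with HIF1A over the 6 libraries was 0.997, 0.994 and 0.994, the highest among all tested genes and given as a description, since 6 libraries in 2 groups leave many genes with high values. TOMM6 stood at 52.47, 50.81 and 52.10 FPKM in control and at 46.71, 40.30 and 37.60 FPKM with siMTA1. Its order of libraries within siMTA1 was that of HIF1A, which picking genes by r favours. METTL10 lay at 0.98 to 1.39 FPKM over the 6 libraries, close to the filter of 1 FPKM, and FAM185A at 1.54 to 2.16 FPKM.

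EPAS1, or HIF-2 alpha, is the paralog of HIF1A that pairs with the same beta subunit (ENSG00000116016.13, chromosome 2, 46293667 to 46386703). It was at 14.78, 15.32 and 15.32 FPKM in control and at 15.11, 14.56 and 15.66 FPKM with siMTA1, and the groups overlapped throughout. Its log2 fold change was −0.00 (SE 0.06, adjusted p = 0.973), with a 95% interval of −0.13 to 0.12, that is from 0.916 to 1.09 times on the FPKM + 1 scale. A change of EPAS1 the size of the estimate for HIF1A lies outside that interval. The sign of the EPAS1 estimate depended on the scaling: it was 0.01 under TPM, 0.04 under upper-quartile scaling and quantile normalization and 0.05 under median centring.

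The 2 expressed alpha subunits were also compared within each library. HIF1A over EPAS1, a ratio of FPKM values, was 2.24, 2.09 and 2.15 in control and 1.89, 1.74 and 1.50 with siMTA1. It was lower in every siMTA1 library, with means of 2.16 ± 0.0747 and 1.71 ± 0.201 (SD, n = 3 each). The exact two-sided permutation test gave p = 0.1, the smallest possible, and the same p = 0.1 came from each of 6 such ratios of HIF1A, to EPAS1, ARNT, VHL, HIF1AN, EGLN1 and CITED2 (Benjamini-Hochberg adjusted p = 0.1 for all 6, exact permutation). These ratios were chosen after the values were seen. All 6 share HIF1A as numerator, whose groups already did not overlap, so they are not separate evidence. HIF1A made up 69.1%, 67.6% and 68.3% of the FPKM of the alpha subunits in control and 65.4%, 63.5% and 59.9% with siMTA1.

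HIF3A, whose product includes forms that dampen the other alpha subunits, was nearly silent (ENSG00000124440.15, chromosome 19, 46297046 to 46343433). It was listed at 0.02, 0.01 and 0.01 FPKM in control and at 0.01, 0 and 0 FPKM with siMTA1. With the gene length of GENCODE 29 this is 7 fragments or fewer in a library, too few for a difference to be detectable at this depth. No test was made at the filter used.

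ARNT, the constant beta subunit (ENSG00000143437.20, chromosome 1, 150809705 to 150876768), was at 7.67, 8.22 and 7.75 FPKM in control and at 7.79, 7.73 and 8.72 FPKM with siMTA1. The groups overlapped, and the highest library, siMTA1 library 3, set the positive sign: the log2 fold change was 0.03 (SE 0.06, 95% interval −0.11 to 0.17, adjusted p = 0.763) and −0.02 without that library.

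**Figure D2:**
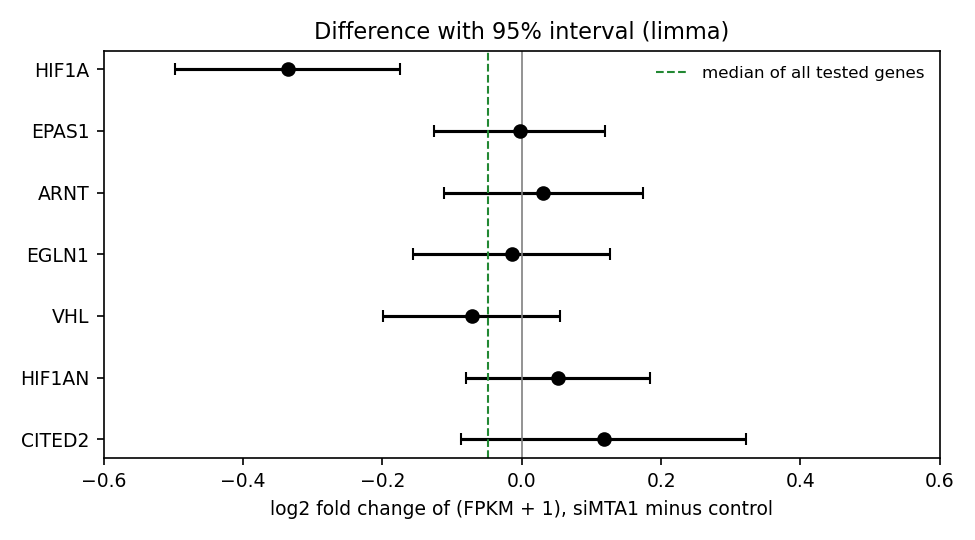
Log2 fold change of FPKM + 1, siMTA1 minus control, of the 7 tested members, as points with limma's 95% interval. The interval of HIF1A, −0.50 to −0.17, lies below 0, those of the other 6 members include 0, and the dashed line marks the median of all tested genes at −0.05.

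The promoters of both expressed alpha subunits are shown, with those of EGLN1 and CITED2, known targets of HIF themselves. They allow letters that match the DNA core recognised by HIF to be set beside the levels. HIF binds a core of A or G followed by CGTG. Each window runs from 250 bases before to 50 bases after a start site in RefSeq (GRCh38.p14), is written 5′ to 3′ on the strand of the gene, and has ACGTG and GCGTG on either strand in capitals (CACGT and CACGC when read on the opposite strand). The windows are chr14:61695263-61695562 (plus strand) for HIF1A, chr2:46297157-46297456 (plus strand) for EPAS1, chr1:231422238-231422537 (minus strand) for EGLN1 and chr6:139374599-139374898 (minus strand) for CITED2.
HIF1A: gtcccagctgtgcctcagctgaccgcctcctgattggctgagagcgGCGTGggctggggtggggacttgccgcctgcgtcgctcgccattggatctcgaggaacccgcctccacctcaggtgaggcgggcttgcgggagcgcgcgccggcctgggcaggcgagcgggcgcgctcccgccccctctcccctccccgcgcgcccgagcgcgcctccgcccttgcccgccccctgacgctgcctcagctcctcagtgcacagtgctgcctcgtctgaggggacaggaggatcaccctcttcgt
EPAS1: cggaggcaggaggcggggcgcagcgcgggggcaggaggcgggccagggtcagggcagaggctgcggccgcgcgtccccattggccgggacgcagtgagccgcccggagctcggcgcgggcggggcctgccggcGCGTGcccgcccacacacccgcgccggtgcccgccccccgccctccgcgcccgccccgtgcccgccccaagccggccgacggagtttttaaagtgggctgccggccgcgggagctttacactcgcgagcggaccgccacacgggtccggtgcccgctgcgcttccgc
EGLN1: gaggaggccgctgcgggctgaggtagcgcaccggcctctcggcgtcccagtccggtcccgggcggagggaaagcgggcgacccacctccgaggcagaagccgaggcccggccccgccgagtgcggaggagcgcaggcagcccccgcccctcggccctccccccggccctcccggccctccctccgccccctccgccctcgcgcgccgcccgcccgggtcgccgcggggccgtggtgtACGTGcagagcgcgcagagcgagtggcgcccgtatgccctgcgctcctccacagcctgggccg
CITED2: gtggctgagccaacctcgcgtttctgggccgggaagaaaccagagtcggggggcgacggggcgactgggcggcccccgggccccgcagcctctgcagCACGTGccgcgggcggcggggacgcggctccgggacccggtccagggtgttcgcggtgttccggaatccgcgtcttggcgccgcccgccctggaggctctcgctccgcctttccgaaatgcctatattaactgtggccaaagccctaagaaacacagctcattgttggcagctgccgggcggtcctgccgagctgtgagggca

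HIF1A and EPAS1 each held 1 GCGTG and 0 ACGTG in these windows, EGLN1 held 1 ACGTG, and CITED2 held CACGTG, in which ACGTG reads on both strands. Among all 35116 promoter windows of this length, 21.4% held ACGTG, 36.5% GCGTG and 7.3% CACGTG. The windows of HIF1A, EPAS1, EGLN1 and CITED2 had a G + C content of 73.0%, 80.0%, 80.0% and 69.3%, against a median of 58.7% over all windows. Of the 9 members 8 were matched in the RefSeq table, and VHL was not. The windows shown are the first of each gene. At further start sites, HIF1A window 2 held neither core (G + C 31.7%), and CITED2 windows 2 and 3 held 2 and 1 GCGTG. Of the members not shown, EGLN2 held CACGTG in window 1, as CITED2 did, and HIF3A held 3 GCGTG in window 1. Their other windows and those of ARNT and HIF1AN held neither core. A match is a description of letters, not a bound site.

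EGLN1, or PHD2, the prolyl hydroxylase that sets HIF alpha turnover in most cells, did not pass the test (ENSG00000135766.8, chromosome 1, 231363751 to 231425044). It was at 7.46, 7.03 and 6.84 FPKM in control and at 7.31, 6.56 and 7.23 FPKM with siMTA1, with overlapping groups. The log2 fold change was −0.01 (SE 0.06, 95% interval −0.16 to 0.13, adjusted p = 0.893), and its sign was positive under upper-quartile scaling, quantile normalization and median centring. The level of EGLN1 differed between the groups by less than the spread between libraries. EGLN1 carries ACGTG just before its start site in the window above, as 21.4% of all windows do somewhere, and is induced by HIF in many cells. Whether HIF acted on EGLN1 here was not tested.

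EGLN2, or PHD1, was listed low, at 0.62, 0.67 and 0.50 FPKM in control and at 0.77, 0.51 and 0.53 FPKM with siMTA1 (ENSG00000269858.5, chromosome 19, 40798996 to 40808433). Its groups overlapped, and it was under the filter. The readthrough gene RAB4B-EGLN2, annotated on the same strand, holds 30.6% of the exon bases of EGLN2 and was listed far higher, at 4.52, 5.29 and 5.33 FPKM in control and 5.55, 4.54 and 5.54 FPKM with siMTA1. It did not pass the test either (log2 fold change 0.04, SE 0.09, adjusted p = 0.787). Because reads of the common exons could have been given to the readthrough gene, the level of EGLN2 is uncertain.

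EGLN3, or PHD3, is no member but is the remaining prolyl hydroxylase of the family and a strong HIF target. It was at 1.08, 1 and 1.03 FPKM in control and at 1.38, 1.20 and 1.59 FPKM with siMTA1. Every siMTA1 library was above every control library, as for 13.2% of all tested genes, but EGLN3 did not pass the test (log2 fold change 0.23, SE 0.08, adjusted p = 0.0702). EGLN1 held 81.3% ± 0.469 of the FPKM of the 3 EGLN genes in control and 78.0% ± 1.17 with siMTA1 (SD, n = 3 each), and EGLN3 11.9% ± 0.411 and 15.4% ± 1.42. With RAB4B-EGLN2 counted among them the share of EGLN1 was 51.6% and 49.5%.

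**Figure D3:**
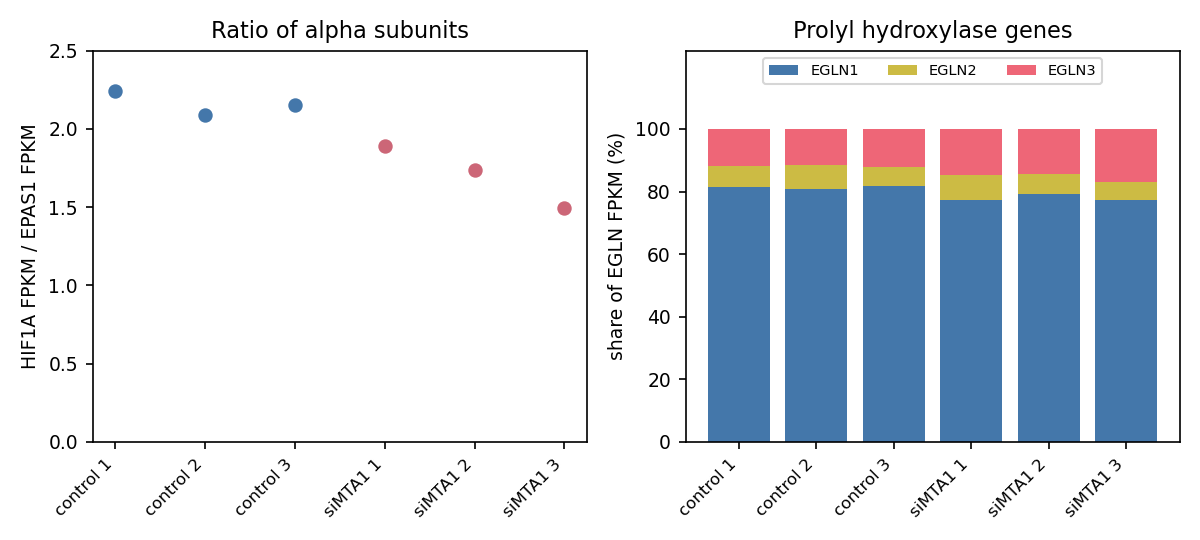
Left, ratio of HIF1A to EPAS1 FPKM in each library, at 2.09 to 2.24 in control and 1.50 to 1.89 with siMTA1. Right, share in percent of EGLN1, EGLN2 and EGLN3 in their summed FPKM in each library, with EGLN3 at 11.5% to 12.3% in control and 14.5% to 17.0% with siMTA1.

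VHL, the subunit that recognises hydroxylated HIF alpha (ENSG00000134086.7, chromosome 3, 10141008 to 10152220), was at 12.81, 12.66 and 13.13 FPKM in control and at 12.16, 11.66 and 12.77 FPKM with siMTA1. The highest siMTA1 library reached into the control range. The log2 fold change was −0.07 (SE 0.06, 95% interval −0.20 to 0.05, adjusted p = 0.397).

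HIF1AN, or FIH, the asparaginyl hydroxylase (ENSG00000166135.13, chromosome 10, 100529072 to 100559998), was at 6.03, 6.46 and 6.49 FPKM in control and at 6.40, 6.53 and 6.86 FPKM with siMTA1. The groups overlapped by siMTA1 library 1, with a log2 fold change of 0.05 (SE 0.06, 95% interval −0.08 to 0.18, adjusted p = 0.560). Its annotated exons share 325 bases with NDUFB8 on the opposite strand, a complex I gene listed at 1.81 to 4.43 FPKM that did not pass the test (adjusted p = 0.354). They share 31 bases with RP11-411B6.6, also on the opposite strand, which fell from 25.2 ± 0.446 to 21.7 ± 0.234 FPKM (SD, n = 3 each, log2 fold change −0.21, limma adjusted p = 0.0227), so a small part of its reads cannot be assigned where strand was not used in counting.

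CITED2, which displaces HIF from CBP and p300 and is itself a HIF target (ENSG00000164442.9, chromosome 6, 139371807 to 139374620), varied most among the uncalled members that were tested. It was at 6.72, 7.20 and 8.15 FPKM in control and at 8.01, 7.11 and 9.12 FPKM with siMTA1, and libraries of the 2 groups interleaved. The log2 fold change was 0.12 (SE 0.09, 95% interval −0.09 to 0.32, adjusted p = 0.392), an interval that reaches 1.25 times and so is wider than for EPAS1 or VHL.

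FPKM is scaled to gene length, so the levels of members can be ordered, but the order rests on gene lengths that are not given. The place of EGLN2 is uncertain, because its reads could have been given to RAB4B-EGLN2. In control the order was HIF1A, EPAS1, VHL, ARNT, CITED2, EGLN1, HIF1AN, EGLN2 and HIF3A, from 32.7 to 0.0133 FPKM. The ranges of ARNT and CITED2, and of CITED2 and EGLN1, overlapped there, and the other neighbours were separate. With siMTA1 the order was the same apart from ARNT and CITED2, both at 8.08 FPKM, and EGLN1 and HIF1AN overlapped as well. HIF1A stood at or above 84.8% of tested genes, EPAS1 72.6%, VHL 67.8% and ARNT 55.3%, and HIF1AN at or above 49.1%.

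Of the 4 partners of VHL in the ubiquitin ligase, 1 passed the test. RBX1, the RING subunit that recruits the ubiquitin-conjugating enzyme, fell from 10.0 ± 1.19 to 7.52 ± 0.481 FPKM (SD, n = 3 each, log2 fold change −0.37, adjusted p = 0.0168), but not without siMTA1 library 2 (adjusted p = 0.0664) or when low genes were kept in (adjusted p = 0.167). The scaffold CUL2 (log2 fold change −0.18, adjusted p = 0.132) and the adaptors ELOB, listed as TCEB2 (−0.18, adjusted p = 0.103), and ELOC, listed as TCEB1 (−0.04, adjusted p = 0.719), did not pass. Thus 1 of 4 was lower and 0 higher, beside 12.1% and 6.13% of all tested genes. By the unadjusted limma p 3 were lower and 0 higher, beside 23.5% and 11.5% of all tested genes, and the median was −0.18. With array weights, which called 4049 of the 12141 tested genes, 2 were lower, ELOB among them (limma adjusted p = 0.0199).

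Of 22 tested genes with other roles in HIF alpha stability, 3 fell and 1 rose, near the 12.1% and 6.13% of all tested genes, with a median log2 fold change of −0.03 that was 0.0078 under upper-quartile scaling and 0.024 under median centring. With array weights, which called 4049 of the 12141 tested genes, 7 fell and 3 rose. HSP90AA1, the chaperone that protects HIF1A, averaged 1398.6 ± 102 FPKM in control libraries and 1062.5 ± 108 FPKM after siMTA1 (−0.40, adjusted p = 0.0130). AJUBA, a LIM protein that bridges EGLN and VHL, was at 6.82 ± 0.265 and 5.07 ± 0.452 FPKM (−0.37, adjusted p = 0.00809). OS9, which binds HIF1A together with EGLN enzymes, was at 88.4 ± 5.30 and 109.3 ± 2.53 FPKM (0.31, adjusted p = 0.00904). With no filter on low values the calls of HSP90AA1, AJUBA and OS9 ended (adjusted p = 0.184, 0.0890 and 0.0785). COMMD1 was the third that fell (−0.21, adjusted p = 0.0481). Its call ended there too (0.167), and under TPM, upper-quartile scaling, quantile normalization and median centring (0.0596 to 0.136), with a mean of at least 0.1 FPKM (0.0700) or no intensity trend (0.0559). It also ended without control library 2 (adjusted p = 0.167) or 3 (0.0963) and without siMTA1 library 1 (0.144), 2 (0.0845) or 3 (0.0670).

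Of 13 tested coactivators and related genes, 2 fell and 0 rose, near the 12.1% and 6.13% of all genes, with 2 lower and 2 higher by the unadjusted limma p, beside 23.5% and 11.5% of all tested genes. COPS5, of the COP9 signalosome, averaged 32.1 ± 0.695 FPKM in control libraries and 28.0 ± 1.01 FPKM after siMTA1 (−0.19, adjusted p = 0.0369), and the ATPase RUVBL1 had a log2 fold change of −0.18 (adjusted p = 0.0481). Both calls ended whichever single library was left out, with adjusted p-values of 0.0577 to 0.0970 for COPS5 and 0.0646 to 0.147 for RUVBL1. Scaling ended them as well: 0 were lower under TPM, upper-quartile scaling, quantile normalization, median centring or with no filter on low values. Under quantile normalization and median centring 1 was higher instead, the histone demethylase KDM4C (log2 fold changes of 0.21 and 0.22, adjusted p = 0.0488 and 0.0497). With array weights, which called 4049 of the 12141 tested genes, 3 were lower and 2 higher. The acetyltransferases that HIF recruits, EP300 (4.99 ± 0.210 and 4.97 ± 0.199 FPKM, adjusted p = 0.974) and CREBBP (4.14 ± 0.0173 and 3.97 ± 0.154 FPKM, adjusted p = 0.580), did not pass. None of 7 other genes of the bHLH-PAS family, to which HIF alpha and ARNT belong, passed the limma test (1 lower and 0 higher at an unadjusted p under 0.05, beside 23.5% and 11.5% of all tested genes). With array weights 1 of them, BMAL2, listed as ARNTL2, was called lower (log2 fold change −0.20, limma adjusted p = 0.0177).

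Genes that act on transcription or translation of HIF1A included 1 that rose and 1 that fell among 13 tested, near the 6.13% and 12.1% of all tested genes. NFKB1 encodes a subunit of NF-kB, a factor known to raise HIF1A transcription. It was at 5.99, 6.10 and 6.67 FPKM in control and at 4.56, 4.49 and 4.66 FPKM after siMTA1 (a log2 difference of −0.38, SE 0.06, adjusted p = 0.00403). All siMTA1 libraries lay below all control libraries, as for 25.9% of all tested genes. The transcription factor genes RELA (log2 fold change 0.11, limma adjusted p = 0.307), SP1 (0.08, adjusted p = 0.404) and STAT3 (−0.12, adjusted p = 0.205) did not pass. Whether any of these factors acted on HIF1A here was not tested. DDIT4, an inhibitor of mTORC1 and itself a HIF target, was at 277.89, 286.83 and 292.18 FPKM in control and at 366.89, 363.75 and 395.12 FPKM with siMTA1 (0.39, SE 0.06, adjusted p = 0.00252). Its groups did not overlap either, with siMTA1 higher, as for 13.2% of all tested genes.

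Other dioxygenases that use oxygen and 2-oxoglutarate, or oxygen alone, included 4 of 15 that rose and 0 that fell, beside 6.13% and 12.1% of all tested genes, with a median of 0.12. By the unadjusted limma p 7 were higher and 2 lower, beside 11.5% and 23.5% of all tested genes, and with array weights 8 were called higher and 1 lower. The count higher was 6 under median centring. It was 5 under quantile normalization, without control library 1 and with a replicate block, which also called 1 lower. In the main fit the 4 that rose were KDM3A, P4HA1, P4HA2 and PLOD1. The histone demethylase KDM3A went from 11.9 ± 0.370 to 18.8 ± 2.10 FPKM (SD, n = 3 each, here and below). The collagen prolyl hydroxylase P4HA1 went from 25.6 ± 2.64 to 37.1 ± 5.16 FPKM, and P4HA2 from 7.96 ± 0.137 to 10.9 ± 0.390 FPKM. The lysyl hydroxylase PLOD1 went from 52.2 ± 4.66 to 74.2 ± 4.91 FPKM. Log2 fold changes were 0.62, 0.51, 0.40 and 0.50. With no filter on low values 1 of the 4, P4HA2, passed. KDM3A and P4HA1 are also counted in the list of HIF targets below, so the counts of these lists are not independent. P4HA2 and PLOD1 were not put in that list, which does not say whether HIF acts on them.

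Enzymes that make or use 2-oxoglutarate, succinate and fumarate, which are the cosubstrate and the inhibitors of EGLN enzymes, were lower in 5 of 14 and higher in 0, beside 12.1% and 6.13% of all tested genes, with a median of −0.13. By the unadjusted limma p 7 were lower and 0 higher, beside 23.5% and 11.5% of all tested genes. All 3 subunits of the mitochondrial NAD-dependent isocitrate dehydrogenase were among the 5: IDH3A averaged 14.8 ± 0.371 FPKM in control libraries and 12.4 ± 0.820 FPKM after siMTA1, IDH3G at 33.8 ± 1.36 and 28.2 ± 1.40 FPKM, and IDH3B at 45.75 ± 1.89 and 39.9 ± 1.29 FPKM. The others were succinate dehydrogenase genes, SDHB at 86.8 ± 2.91 and 69.1 ± 6.29 FPKM and SDHD at 9.69 ± 0.606 and 7.82 ± 0.605 FPKM. The catalytic subunit SDHA, at 65.3 ± 5.01 and 70.5 ± 4.47 FPKM, did not pass (adjusted p = 0.310). The count lower was 3 without control library 1 or 3 or siMTA1 library 1, 2 without siMTA1 library 3, 1 without control library 2 and 0 without siMTA1 library 2, and it was 2 under quantile normalization, 1 under median centring and 0 with no filter on low values.

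Among known targets of HIF, those that changed rose, while HIF1A itself fell. The list was chosen with earlier results of these data known, so its counts beside those of all genes are a description, not a test. Of its 29 genes 27 were tested, and CA9 and LOX were not. EGLN1 and CITED2, also HIF targets, were counted as members instead, and neither passed the test. Of the 27 tested targets 16 rose and 0 fell, against 6.13% of all genes higher, with a median of 0.37. By the unadjusted limma p 19 were higher and 0 lower, beside 11.5% and 23.5% of all tested genes. The count that rose was 14 to 16 with any single library left out and 7 with no filter on low values. ANKRD37, NDRG1, ADM and ANGPTL4 had log2 fold changes of 2.48, 1.22, 0.84 and 1.99, whereas VEGFA, the angiogenic factor, and the glucose transporter gene SLC2A1 stood at 33.7 ± 0.525 and 33.8 ± 1.42 FPKM and at 25.5 ± 2.31 and 24.5 ± 1.66 FPKM and did not pass (adjusted p = 0.957 and 0.652).

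**Figure D4:**
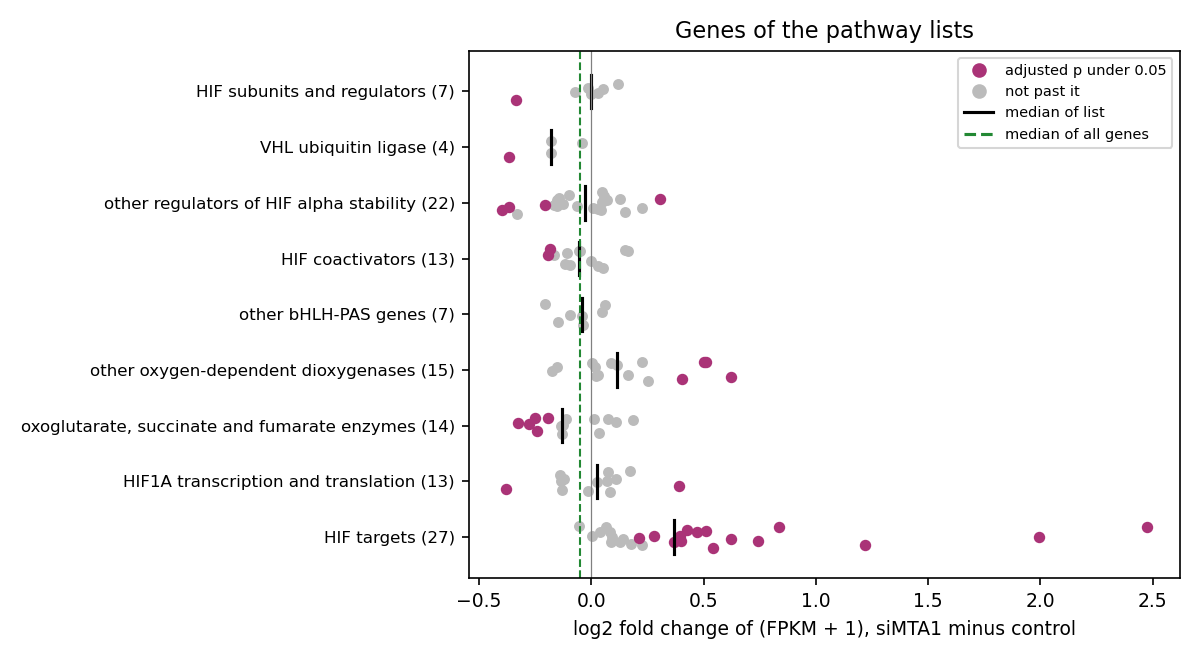
Log2 fold change of FPKM + 1, siMTA1 minus control, of each tested member (top line) and each tested gene of 8 pathway lists, with the number of genes in brackets. Genes with an adjusted p under 0.05 are coloured, black bars are list medians and the dashed line is the median of all tested genes at −0.05. HIF targets, a list chosen with earlier results of these data known, have a median of 0.37. HIF1A, at −0.34, is the coloured point of the top line.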

How the data were processed

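PolyA RNA of 3 control and 3 siMTA1 samples was sequenced from directional paired-end libraries, per the labels' protocols. The authors deposited FPKM values to 2 decimals. The submitters' processing notes name cutadapt, TopHat2, edgeR and GRCh38; counter, annotation release and gene lengths are not given there. Columns were matched to samples by name. Genes averaging 1 FPKM or more were tested with limma 3.58.1 in R 4.3.3 on log2(FPKM + 1), with an intensity trend, without covariates, two-sided, and Benjamini-Hochberg adjusted over all 12141 genes. Such fold changes understate those of low genes. The procedure was tested on simulated data. The members and lists were chosen with earlier results of these data known. Named genes were the members, MTA1, the VHL ligase genes, overlapping genes, up to 4 per list by adjusted p, and the 3 most correlated with HIF1A; further genes were named after their values were seen. Coordinates are those of GENCODE 29. Depth was implied from whole steps (tolerance 0.04) of genes under 150 bases, 95.9% to 97.8% of whose low values were whole. Alternatives were pseudocounts, filters, scalings, limma settings, a replicate block and each library left out. Python 3.11.15, pandas 2.3.3 and matplotlib 3.10.9 were used.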

Additional observations from a re-analysis of the deposited data

How the results depend on the processing

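The number of changed genes, 2207 (744 higher and 1463 lower), was 572 with no filter on low values (262 higher and 310 lower) and 4049 with array weights (1434 and 2615). Lower genes numbered 939 under upper-quartile scaling, 895 under quantile normalization and 802 under median centring, which gave 1128 higher. Leaving out single libraries gave 1046 to 1780 changed genes, 388 to 631 higher and 640 to 1199 lower, with the fewest without control library 2 (1046) or siMTA1 library 2 (1068). Members called were 0 with no filter and 0 to 1 over left-out libraries. The pathway lists held 31 called genes, 9 with no filter and 51 with array weights. The EGLN1 share of EGLN FPKM, 81.3% in control and 78.0% with siMTA1, was 92.3% and 92.1% over EGLN1 and EGLN2 alone, and 51.6% and 49.5% with RAB4B-EGLN2 added, an alternative chosen after seeing the data. The cause of these moves was not tested.

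Genes not called changed sign as follows. EPAS1 was 0.013 under TPM, 0.039 under upper-quartile scaling, 0.038 under quantile normalization, 0.051 under median centring and −0.028 to 0.022 over left-out libraries. EGLN1 was 0.025, 0.044 and 0.040 under upper-quartile, quantile and median scaling and −0.039 to 0.029 over left-out libraries. ARNT was −0.023 with array weights and −0.019 to 0.058 over left-out libraries. TCEB1 was 0.014 under quantile normalization, 0.011 under median centring, 0.031 with array weights and −0.085 to 0.034 over left-out libraries. RAB4B-EGLN2 was −0.013 with array weights and −0.027 to 0.12 over left-out libraries, and RAB4B −0.18 to 0.021.

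Same-numbered samples deviated together with r of 0.33, 0.02 and 0.22, and samples of different numbers with r of −0.28 to 0.07. Samples did not all correlate best with their own number, and the main test did not pair them. Whether the numbers mark samples handled together was not tested. With the replicate block 3031 genes were called, beside 2207 without it, HIF1A was again the 1 member called, and CUL2 passed (adjusted p = 0.0307). At the implied depths CITED2 rested on 738 to 1415 fragments and EGLN2 on 177 to 290, so that small differences in EGLN2 and HIF3A were not detectable.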
